A study of Mus musculus with 30 samples.

Results

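The genes described here were 10 transcripts of extracellular matrix and mesenchymal cells: the collagen chains Col1a1, Col1a2, Col3a1, Col4a1, Col5a2 and Col6a3, the matrix proteins Bgn and Sparc, the smooth muscle actin Acta2 and the growth factor receptor Pdgfrb. They were taken by symbol from the 55414 genes counted, and they had been chosen because earlier results on the same libraries showed them lower in TRα1PV than in wild-type (WT) macrophages. The difference between genotypes is therefore a description here and carries no test, and the tests below concern the states of the cells and genes outside the 10. Bone marrow from WT mice and from mice carrying the TRα1PV mutation in thyroid hormone receptor α1 was grown into macrophages for 7 days, giving 30 libraries of polyA RNA in 6 groups of 5 biological replicates. The labels also give each replicate number as a batch, so each of the 5 batches held 1 library of every group. In each genotype the cells were left unstimulated (M0), stimulated with lipopolysaccharide and interferon-γ at 20 ng/mL each (M1), or stimulated with interleukin-4 at 20 ng/mL (M2). All 6 groups were cultured with L929-conditioned medium, at 15 or 20%. The sources used here do not say which cultures received which share, how long stimulation lasted, or the zygosity, age and sex of the mice. No promoter or cell type that restricts the mutation is named, and the cultures started from bone marrow, which also holds other cells.

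Fibrillar collagens are secreted as triple helices of 3 chains: type I collagen combines Col1a1 and Col1a2 chains, and types III and V co-assemble into the same fibrils. Type IV collagen forms the sheet of basement membranes, and type VI collagen forms beaded filaments near cells. Fibroblasts, pericytes and smooth muscle cells are the usual producers of these proteins, and macrophages are better known for degrading and taking up matrix. The PV mutation gives a receptor that no longer binds thyroid hormone and acts in a dominant-negative manner.

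Each library held 23015952 to 59086252 reads in genes. All 10 macrophage markers were detected in both genotypes, with a summed level of 29740 to 34641 CPM (reads scaled to library size) in WT M0 and 27105 to 32062 CPM in TRα1PV M0. Csf1r, the receptor of the macrophage growth factor, averaged 4344 CPM in WT M0 and 4556 CPM in TRα1PV M0. By comparison the 10 genes were scarce: all 10 together took 365 to 1242 reads in a WT M0 library and 93 to 156 reads in a TRα1PV M0 library. At this abundance a bulk library does not separate fewer cells of a type from less RNA per cell. WT replicate 2 in M0 had 4.56% of its reads on mitochondrial genes, the highest share of the 30 libraries.

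Per kilobase of exon (lengths of an older annotation than the one counted), Acta2 was the most abundant of the 10 in WT M0 at 2.04 ± 0.58 CPM per kilobase (SD, n = 5). Below it came Sparc, Bgn, Col1a1, Col1a2, Col4a1, Pdgfrb, Col5a2, Col6a3 and Col3a1, from 0.775 down to 0.0602 CPM per kilobase. Only the step from Acta2 to Sparc exceeded 1 SD of the wider gene, so the order among the other 9 is loose. In TRα1PV M0, Acta2 again led at 0.570 ± 0.12 CPM per kilobase (SD, n = 5), and Pdgfrb stood next at 0.0866 ± 0.012 CPM per kilobase (SD, n = 5). Csf1r reached 752 CPM per kilobase in WT M0 on the same scale.

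Promoters are shown for 3 collagen genes that differ in their pattern below: Col1a2 and Col3a1, which were lower in TRα1PV M0 and fell in WT M1, and Col6a3, which rose in M1. Each sequence is the 250 bases before the transcription start, read 5′ to 3′ on the gene's strand from RefSeq for GRCm38.p6, with any motif found in capitals. Col1a2 lies at chr6:4505368-4505617 on the plus strand, Col3a1 at chr1:45311288-45311537 on the plus strand, and Col6a3 at chr1:90843972-90844221 on the minus strand.
Col1a2: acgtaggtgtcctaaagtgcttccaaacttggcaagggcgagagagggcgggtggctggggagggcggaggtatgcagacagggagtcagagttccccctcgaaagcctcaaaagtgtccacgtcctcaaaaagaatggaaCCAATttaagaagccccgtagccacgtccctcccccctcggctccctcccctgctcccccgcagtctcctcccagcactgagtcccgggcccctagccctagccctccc
Col3a1: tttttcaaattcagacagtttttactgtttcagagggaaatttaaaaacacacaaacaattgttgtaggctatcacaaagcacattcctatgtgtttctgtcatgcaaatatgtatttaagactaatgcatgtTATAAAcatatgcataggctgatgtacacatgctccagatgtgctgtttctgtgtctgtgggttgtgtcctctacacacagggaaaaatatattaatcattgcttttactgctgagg
Col6a3: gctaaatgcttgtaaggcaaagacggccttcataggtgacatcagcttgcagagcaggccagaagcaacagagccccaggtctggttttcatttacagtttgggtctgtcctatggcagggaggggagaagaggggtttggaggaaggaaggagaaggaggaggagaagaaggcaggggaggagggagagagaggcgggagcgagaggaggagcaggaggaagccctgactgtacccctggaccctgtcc
The motif in the Col1a2 window is CCAAT, present on either strand in 33.8% of 32851 promoters of this length. Among the 7 promoters used for the 10 genes it was also found in Col4a1. The motif in the Col3a1 window is TATAAA, present in 12.4% of all promoters. The nuclear receptor half-site AGGTCA was in 14.02% of all promoters and in none of the 7. Its direct repeat with 4 bases between the half-sites (0.0152% of all), a perfect CArG box, the motif of smooth muscle genes (1.47%), the STAT motif TTCNNNGAA (7.02%) and the core of the interferon-stimulated response element (2.98%) were also in none of the 7. The absence of these letters from a window says nothing of binding elsewhere.

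In unstimulated cells the type I collagen chains were read in every WT library and were near 0 in TRα1PV. Col1a1, the α1 chain, had 73, 147, 42, 178 and 108 reads in WT M0 replicates 1 to 5, and 2, 5, 4, 0 and 7 reads in TRα1PV M0. Mean levels were 2.82 ± 1.24 CPM and 0.0858 ± 0.077 CPM (SD, n = 5 each). No TRα1PV library came near the lowest WT library, and the fitted difference was 36.4-fold (log2 difference -5.18 ± 0.64 SE). Col1a2, the α2 chain, had 62, 162, 40, 223 and 169 reads in WT M0 against 2, 6, 0, 3 and 2 in TRα1PV M0. Its difference was 60.0-fold (-5.91 ± 0.70 SE), and again no TRα1PV library reached a WT library. Col1a1 gave 0.835 reads per Col1a2 read in WT M0 (exact 95% interval 0.744 to 0.937). With 18 and 13 reads in all, the same ratio in TRα1PV M0 was 1.38 with an interval of 0.641 to 3.07.

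The chains of types III and V followed. Col3a1 had 35, 20, 6, 23 and 26 reads in WT M0 and 0, 1, 0, 2 and 0 in TRα1PV M0, a ratio of 47.3 with an exact 95% interval of 15.8 to 233 that covers counting error only. Col5a2, which joins type I fibrils and limits their width, had 34, 62, 18, 54 and 48 reads in WT M0 and 3, 4, 4, 6 and 5 in TRα1PV M0. The groups did not overlap, and the difference was 12.2-fold (-3.61 ± 0.44 SE). Against Col1a1, Col5a2 gave 0.394 reads per Col1a1 read in WT M0 (0.335 to 0.462) and 1.22 in TRα1PV M0 (0.626 to 2.42).

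Col4a1, the α1 chain of basement membrane collagen, differed by less. Reads were 82, 70, 29, 84 and 56 in WT M0 and 13, 19, 13, 15 and 4 in TRα1PV M0, and the difference was 6.34-fold (-2.66 ± 0.37 SE). Col6a3, the largest chain of type VI collagen, had 55, 47, 17, 104 and 43 reads in WT M0 and 6, 7, 2, 1 and 2 in TRα1PV M0. The difference in M0 was 17.7-fold (-4.14 ± 0.44 SE), and in M1 both genotypes were higher than in M0.

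Bgn encodes biglycan, a small proteoglycan that binds collagen fibrils. Its reads were 65, 209, 34, 170 and 119 in WT M0 and 5, 16, 4, 6 and 5 in TRα1PV M0, a 20.1-fold difference (-4.33 ± 0.53 SE). Sparc, a secreted calcium- and collagen-binding protein, had 75, 150, 42, 165 and 132 reads against 2, 16, 8, 7 and 5, an 18.4-fold difference (-4.20 ± 0.42 SE). In both genes TRα1PV replicate 2 carried 16 reads and stood above the other 4 TRα1PV libraries, yet below every WT library. The M1 and M2 libraries kept the separation for both. The highest TRα1PV values were 0.108 CPM for Bgn and 0.215 CPM for Sparc in M1, below the lowest WT values of 0.274 and 0.307 CPM. In M2 they were 0.196 and 0.168 CPM, below 0.290 and 0.496 CPM.

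Acta2 and Pdgfrb stood apart from the matrix genes. Acta2, the actin of smooth muscle and myofibroblasts, kept 44, 63, 71, 74 and 50 reads in TRα1PV M0 against 131, 245, 121, 198 and 166 in WT M0. That was a 3.61-fold difference (-1.85 ± 0.21 SE), without overlap in CPM. In TRα1PV M0 there were 16.8 Acta2 reads for each Col1a1 read (10.4 to 28.7), and in WT M0 1.57 (1.41 to 1.75). Pdgfrb, the receptor for PDGF-B that marks pericytes, had 39, 39, 16, 43 and 35 reads in WT M0 and 23, 19, 35, 30 and 13 in TRα1PV M0. The 1.88-fold difference (-0.91 ± 0.30 SE) had overlapping groups, because WT replicate 3 at 0.393 CPM lay inside the TRα1PV range of 0.360 to 0.518 CPM. In M2, Pdgfrb was 0.811 ± 0.23 CPM in WT and 0.734 ± 0.13 CPM in TRα1PV (SD, n = 5 each), with overlapping groups.

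**Figure D1:**
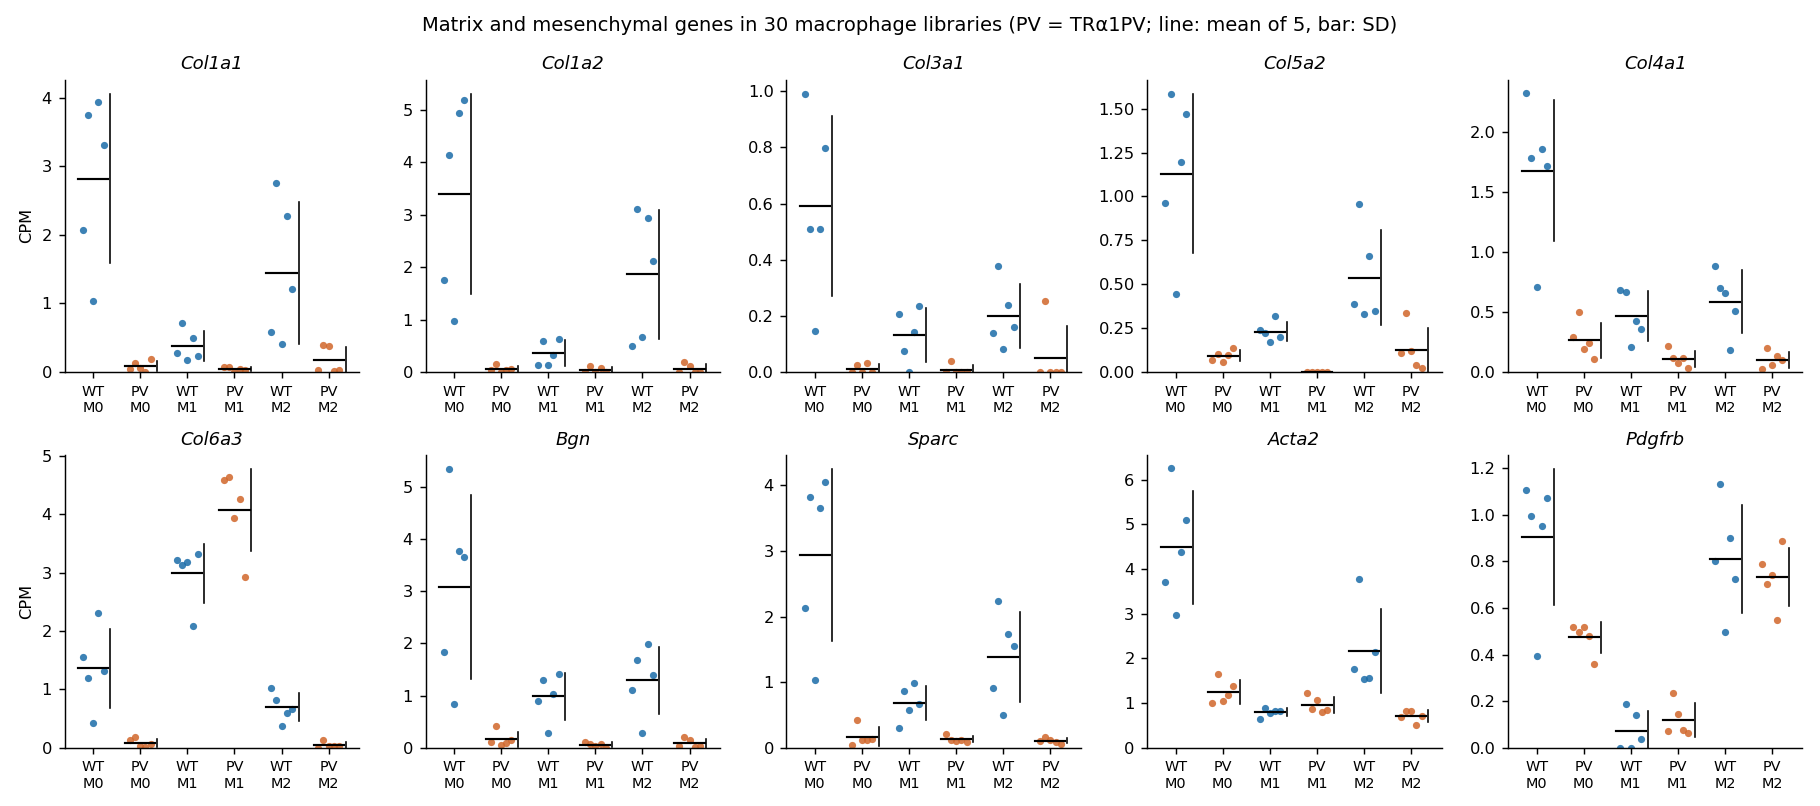
CPM of each of the 10 genes in the 30 libraries (y axes from 0, each gene on its own scale), with WT in blue and TRα1PV (PV) in orange, 5 libraries a group, the mean as a line and the SD as a bar cut off at 0. All but Col6a3 have their highest mean in WT M0, Col6a3 is highest in M1 of both genotypes, and Pdgfrb is lowest in M1.

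Counted by the threshold used throughout (edgeR quasi-likelihood test, Benjamini-Hochberg adjusted p under 0.05), 10 of 10 genes were lower in TRα1PV in M0, 6 of 10 in M1 and 8 of 10 in M2. DESeq2 gave the same counts, and limma-voom called 10 lower in M0, 4 in M1 and 9 in M2. With edgeR, DESeq2 or limma-voom, and at an unadjusted p under 0.05, 0 were higher. Over all 15686 genes tested, 14% were called lower in M0, 10.2% in M1 and 6.96% in M2, and 12%, 9.74% and 6.14% higher. These counts restate the choice of the genes. Groups did not overlap for 9 genes in M0, 5 in M1 and 6 in M2. Compared within batches, TRα1PV was below WT in all 5 batches for 9 genes in M0, 6 in M1 and 9 in M2. The shares of all genes separated in these ways were not counted, so these counts too only describe the chosen genes. The median log2 difference was -4.17 in M0, -2.70 in M1 and -2.83 in M2, beside -0.01, 0.00 and -0.01 over all genes. When the M1 libraries were fitted without the other states, 0 of the 10 were called lower in M1. The 6 genes called lower in M1 did not pass the filter on low counts in that fit and were not tested.

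In M1, 4 genes were not lower by this rule. Levels in WT M1 and TRα1PV M1 were 2.99 ± 0.51 and 4.07 ± 0.70 CPM for Col6a3, 0.795 ± 0.091 and 0.957 ± 0.18 CPM for Acta2, and 0.0734 ± 0.086 and 0.118 ± 0.073 CPM for Pdgfrb (SD, n = 5 each). Col3a1 had 18 reads in WT M1 and 1 in TRα1PV M1. Col5a2 had no read in any of the 5 TRα1PV M1 libraries and 7, 6, 5, 9 and 5 reads in WT M1, which makes it at least 10.8-fold lower against a floor of 3 reads over the group. In M2, all 9 Col3a1 reads of TRα1PV came from replicate 2, and WT M2 held 5, 13, 2, 8 and 6.

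The 10 genes tended to be high or low in the same WT libraries. WT replicate 3 was the lowest of the 5 for 10 of 10 genes in M0 and for 8 of 10 in M2, and for 5 of 10 in M1. Its summed level was 8.96 CPM in M0, while replicate 1 was at 18.4 CPM and the other 3 lay between 27.5 and 29.4 CPM. WT replicate 2 was the highest for 7 of 10 genes in M2. Among TRα1PV libraries, replicate 2 was the highest for 6 of 10 genes in M0, 5 in M1 and 8 in M2. Even so, the lowest WT M0 library (8.96 CPM in sum) lay above the highest TRα1PV M0 library (4.09 CPM in sum).

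**Figure D2:**
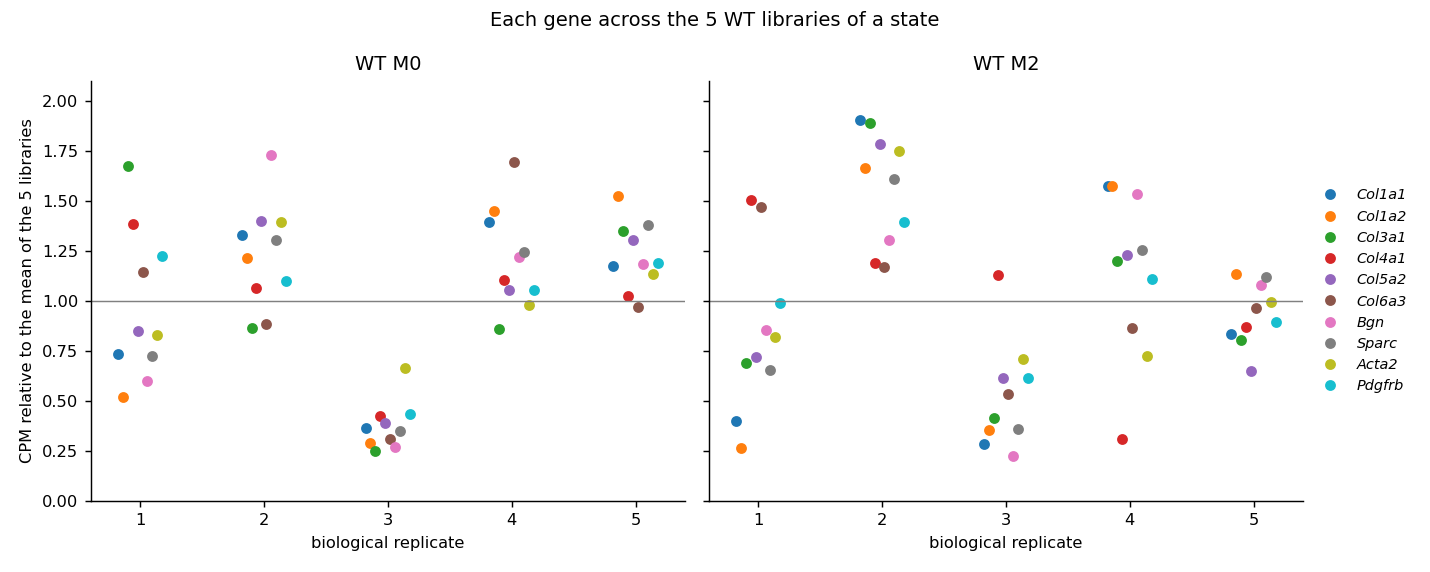
Level of each of the 10 genes in the 5 WT libraries of M0 (left) and M2 (right), as CPM divided by the mean of those 5 libraries; the horizontal line is that mean. Replicate 3 is the lowest library for 10 of 10 genes in M0 and for 8 of 10 in M2.

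Lipopolysaccharide with interferon-γ lowered all but 1 of the genes in WT cells. From M0 to M1, 9 of the 10 fell and Col6a3 rose in WT, at a background of 40.2% of all genes lower and 39.4% higher. These tests share the M0 libraries with the comparison that chose the genes. Pdgfrb fell 11.9-fold (log2 change -3.58 ± 0.44 SE, adjusted p = 1.42e-08), from 0.904 to 0.0734 CPM, and WT M1 replicates 1 and 3 had no Pdgfrb read. Csf1r, which lies 15537 bases from Pdgfrb on the same strand, was at 4344 CPM in WT M0 and 564 CPM in WT M1, and its part in the Pdgfrb reads was not tested. Col1a2 fell 9.45-fold (-3.24 ± 0.57 SE, adjusted p = 7.59e-06) and Col1a1 7.46-fold (-2.90 ± 0.54 SE, adjusted p = 1.75e-05). Acta2 fell 5.63-fold (-2.49 ± 0.23 SE, adjusted p = 4.57e-11), to 0.649 to 0.895 CPM in the WT M1 libraries. Stambpl1, 757 bases from Acta2 on the opposite strand, was at 25.2 CPM in WT M0 and 18.0 CPM in WT M1. The remaining 5 genes, Col5a2, Col3a1, Sparc, Col4a1 and Bgn, fell by 3.16-fold to 4.84-fold. Every one of these 10 calls held in every alternative fit that gave a value, including leaving out any single library.

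Col6a3 went the other way. It had 94, 84, 93, 59 and 84 reads in WT M1 and 128, 118, 110, 113 and 95 in TRα1PV M1. In WT it rose 2.19-fold from M0 (1.13 ± 0.30 SE, adjusted p = 1.12e-03), where WT M0 replicate 4 at 2.30 CPM overlapped the lowest WT M1 library at 2.08 CPM. In TRα1PV it rose 52.5-fold (5.72 ± 0.42 SE, adjusted p = 1.61e-13), with M0 libraries between 0.0159 and 0.183 CPM and M1 libraries between 2.93 and 4.64 CPM. From M1 to M2 it fell 4.20-fold in WT (-2.07 ± 0.32 SE, adjusted p = 1.16e-06) and 83.5-fold in TRα1PV (-6.38 ± 0.47 SE, adjusted p = 1.44e-13). Whether the rise differed between genotypes was not tested, because the gene was chosen for its genotype difference in M0. The tests against M0 share libraries with that choice, and a gene chosen as low in TRα1PV M0 is favoured to rise from it.

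In WT, interleukin-4 lowered 7 of the genes, each by less than 3-fold, and 9 when the batch was a term in the fit. From M0 to M2, 7 of 10 genes fell and 0 rose in WT, beside 27.2% of all genes lower and 25.2% higher. These tests too share the M0 libraries with the comparison that chose the genes, which favours a fall in WT. With DESeq2 and limma-voom 0 rose as well, as at an unadjusted p under 0.05. DESeq2 called 5 lower, without Col3a1 (adjusted p = 0.0775) and Bgn (0.0590), and the fit of only these 2 groups called 4. The count with limma-voom was also 7, with Col1a1 (adjusted p = 0.0358) in place of Col6a3 (0.0786). In M2 the WT library was below the M0 library of its own batch in 5 of 5 batches for 9 genes, and in 3 of 5 for Pdgfrb. The share of all genes with this pattern was not counted. Acta2 fell 2.06-fold (-1.05 ± 0.21 SE, adjusted p = 8.50e-05) and Col4a1 2.85-fold (-1.51 ± 0.35 SE, adjusted p = 5.04e-04). Col5a2, Sparc, Bgn, Col3a1 and Col6a3 fell by 1.92-fold to 2.82-fold. The groups overlapped for all 7. Pdgfrb had an adjusted p of 0.731 and a log2 change of -0.13 ± 0.29 SE. The type I chains missed the threshold in the edgeR fit without batches, with Col1a1 at -0.94 ± 0.45 SE (adjusted p = 0.0801) and Col1a2 at -0.85 ± 0.46 SE (adjusted p = 0.125). With the batch (replicate number) as a block both fell, Col1a1 by 1.06 (adjusted p = 0.0176) and Col1a2 by 0.94 (adjusted p = 9.66e-03) on the log2 scale. Without WT M0 replicate 3 and without the block both also fell, Col1a1 at an adjusted p of 0.0329 and Col1a2 at 0.0460. Without WT M2 replicate 2 or 4 Col1a1 also fell, at 0.0265 and 0.0494. Calls were lost for Col6a3 without WT M0 replicate 4 (adjusted p = 0.109) or WT M2 replicate 3 (0.0523), and for Bgn without WT M0 replicate 2 (0.0603). Col3a1 lost its call without WT M0 replicate 1 (0.0759) or 5 (0.0516), or without WT M2 replicate 1 (0.0548), 3 (0.0544) or 5 (0.0506).

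The direct comparison of M2 with M1 does not use the M0 libraries. The genes were chosen from earlier results on the same libraries, and the part of M1 and M2 in that choice is not known. In WT, 6 genes were higher in M2 and 1, Col6a3, was lower, at a background of 39.6% higher and 38.9% lower. Pdgfrb was 10.9-fold higher in M2 (3.44 ± 0.45 SE, adjusted p = 4.23e-08), with 29, 39, 12, 30 and 27 reads in M2 against 0, 5, 0, 4 and 1 in M1. Col1a2 was 5.25-fold higher (2.39 ± 0.59 SE, adjusted p = 5.39e-04), Col1a1 3.88-fold, Acta2 2.73-fold, Col5a2 2.33-fold and Sparc 2.07-fold. The call of Col5a2 was lost without WT M2 replicate 2 (adjusted p = 0.0762). That of Sparc was lost without the same library (0.0661) or WT M1 replicate 1 (0.0519). Col3a1, Col4a1 and Bgn did not pass, with log2 changes of 0.64 ± 0.72, 0.32 ± 0.40 and 0.43 ± 0.46 SE.

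In TRα1PV cells the same comparisons rested on few reads. Those against M0 share the M0 libraries with the comparison that chose the genes. Col5a2 and Col4a1 passed the filter on low counts through the WT libraries: where only 2 TRα1PV groups were fitted, neither was tested, and their p-values here exist in the fit of all 30 libraries. From M0 to M1, Pdgfrb fell 4.07-fold (-2.03 ± 0.42 SE, adjusted p = 7.68e-05), Col5a2 fell from 22 reads to 0 (at least 4.13-fold, adjusted p = 2.70e-03) and Col4a1 fell 2.39-fold (-1.26 ± 0.55 SE, adjusted p = 0.0386). With Col6a3 this made 1 gene higher and 3 lower, beside 40% and 40.7% of all genes, and 1 higher and 1 lower (Pdgfrb) in the fit of the 2 groups. Acta2, with 134 and 302 reads in M1 and M0, did not pass (-0.37 ± 0.24 SE, adjusted p = 0.151). From M0 to M2, Acta2 fell 1.76-fold (-0.82 ± 0.24 SE, adjusted p = 4.16e-03) and Col4a1 2.45-fold (-1.29 ± 0.51 SE, adjusted p = 0.0311). That was 2 genes lower and 0 higher with edgeR, beside 29.4% and 28.3% of all genes; at an unadjusted p under 0.05 and with limma-voom also 0 were higher, and with DESeq2 1, Pdgfrb. Pdgfrb read 0.550 to 0.890 CPM in TRα1PV M2, above every TRα1PV M0 library (0.360 to 0.518 CPM), with an adjusted p of 0.0831. From M1 to M2, Pdgfrb was 6.21-fold higher (2.64 ± 0.41 SE, adjusted p = 9.92e-07), Col5a2 rose from 0 to 23 reads (at least 5.39-fold, adjusted p = 1.02e-03), 12 of them in replicate 2, and Col6a3 fell. These were 2 genes higher and 1 lower, beside 41% and 39.8% of all genes, and 1 higher (Pdgfrb) in the fit of the 2 groups. DESeq2 called 3 higher, with Col1a1 added (30 reads in M2 against 6 in M1, adjusted p = 0.04997). Replicates 2 and 3 held 14 and 13 of those 30 reads. Acta2, at a log2 change of -0.44 ± 0.26 SE (adjusted p = 0.111), passed with the batch as a block (-0.46, adjusted p = 0.0475), which made 2 lower. The Col4a1 calls were fragile: without TRα1PV M0 replicate 2 the adjusted p was 0.120 for M1 and 0.1096 for M2, and without TRα1PV M0 replicate 1 it was 0.0601 and 0.0534. Leaving out M1 replicate 2, 3, 4 or 5 gave 0.0541, 0.0803, 0.0567 and 0.114 for M1, and leaving out M2 replicate 1, 3 or 5 gave 0.0841, 0.0692 and 0.0539 for M2.

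**Figure D3:**
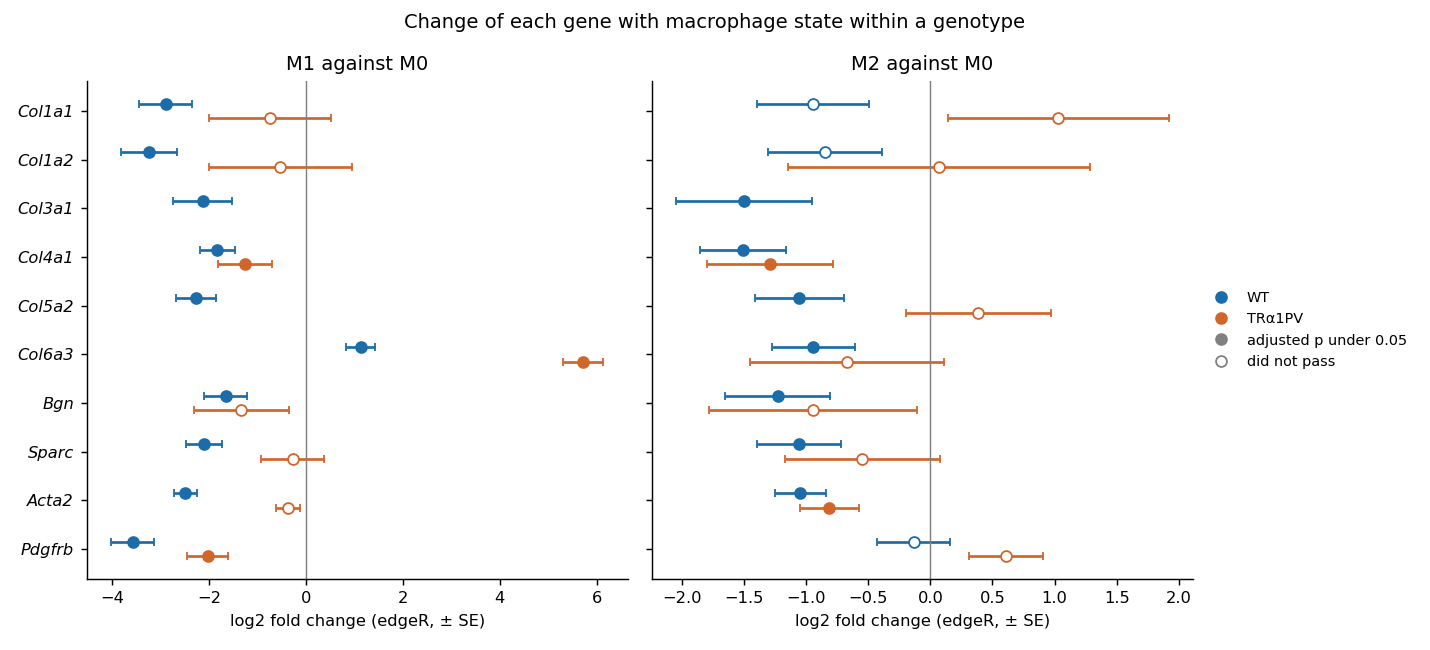
Log2 fold change with its standard error for each gene from M0 to M1 (left) and from M0 to M2 (right), in WT (blue) and TRα1PV (orange); filled points passed an adjusted p under 0.05, and pairs with 3 or fewer reads in a group are not drawn. Col6a3 rises in M1 in both genotypes (1.13 and 5.72), and WT intervals are narrower than those of TRα1PV for the scarce collagens.

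Chains that assemble with these collagens were looked up as a separate list of 7 genes, of which 4 were tested. Col4a2, the usual partner of Col4a1, rose in M1 where Col4a1 fell. It had 1.58 ± 0.49 CPM in WT M0 and 8.81 ± 0.94 CPM in WT M1, a rise of 2.48 ± 0.21 SE on the log2 scale (adjusted p = 5.57e-12). In TRα1PV it rose from 0.579 ± 0.22 to 10.8 ± 1.5 CPM (4.20 ± 0.23 SE, adjusted p = 1.40e-16; SD, n = 5 each). Col4a1 gave 1.06 reads per Col4a2 read in WT M0 (exact 95% interval 0.900 to 1.24), 0.0533 in WT M1 (0.0409 to 0.0684) and 1.09 in WT M2 (0.809 to 1.47). For TRα1PV M0 the ratio was 0.435 (0.319 to 0.588). It was 0.00995 (0.00555 to 0.0165) for TRα1PV M1 and 0.525 (0.294 to 0.912) for TRα1PV M2. Col4a1 and Col4a2 lie head to head on opposite strands and share 22 exonic bases. Rab20, a small GTPase gene next to Col4a2 on the opposite strand, was also higher in M1, from 30.3 to 78.1 CPM in WT and from 24.7 to 84.6 CPM in TRα1PV. The sources used here do not name a strand setting for HTSeq, and the part of Rab20 in the Col4a2 reads was not tested.

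Between genotypes, Col4a2 was lower in TRα1PV in M0 (-1.43 ± 0.24 SE, adjusted p = 6.00e-05) and M2 (-1.42 ± 0.35 SE, adjusted p = 6.41e-03). Col5a1, the partner of Col5a2, was lower by more in M0 (-3.67 ± 0.57 SE, adjusted p = 1.61e-05) and M2 (-3.82 ± 0.70 SE, adjusted p = 3.87e-04). Col6a1 and Col6a2, the short chains of type VI collagen, were lower in M0 (-3.68 ± 0.64 SE, adjusted p = 7.60e-05, and -3.06 ± 0.60 SE, adjusted p = 3.86e-04) and M2 (-3.12 ± 0.59 SE, adjusted p = 5.03e-04, and -2.18 ± 0.55 SE, adjusted p = 8.68e-03). DESeq2 called all 4 in M0 and 2 of these 4 in M2, where it gave Col5a1 and Col6a2 no adjusted p-value. Col5a1 and Col6a2 passed the filter on low counts only through WT libraries, which favours a lower call in TRα1PV, so their p-values are a description. Col4a2 and Col6a1 also had enough reads in TRα1PV M1 to pass. Col5a3, Col6a5 and Col6a6 were too scarce to test. In M1, 0 of the 4 passed with edgeR, DESeq2 or limma-voom, and 1, Col6a2, had an unadjusted p under 0.05. Without WT M1 replicate 3, 1 passed. There the levels were 0.614 ± 0.18 CPM in WT and 0.680 ± 0.074 CPM in TRα1PV for Col6a1 (SD, n = 5 each), and 19 reads in WT and 2 in TRα1PV for Col6a2. Col6a1 rose with Col6a3 in TRα1PV M1 (3.31 ± 0.67 SE, adjusted p = 4.94e-05), from 16 to 95 reads, and did not pass in WT M1 (-0.51 ± 0.49 SE, adjusted p = 0.345). In TRα1PV M2, 23 of its 25 reads came from replicate 2.

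**Figure D4:**
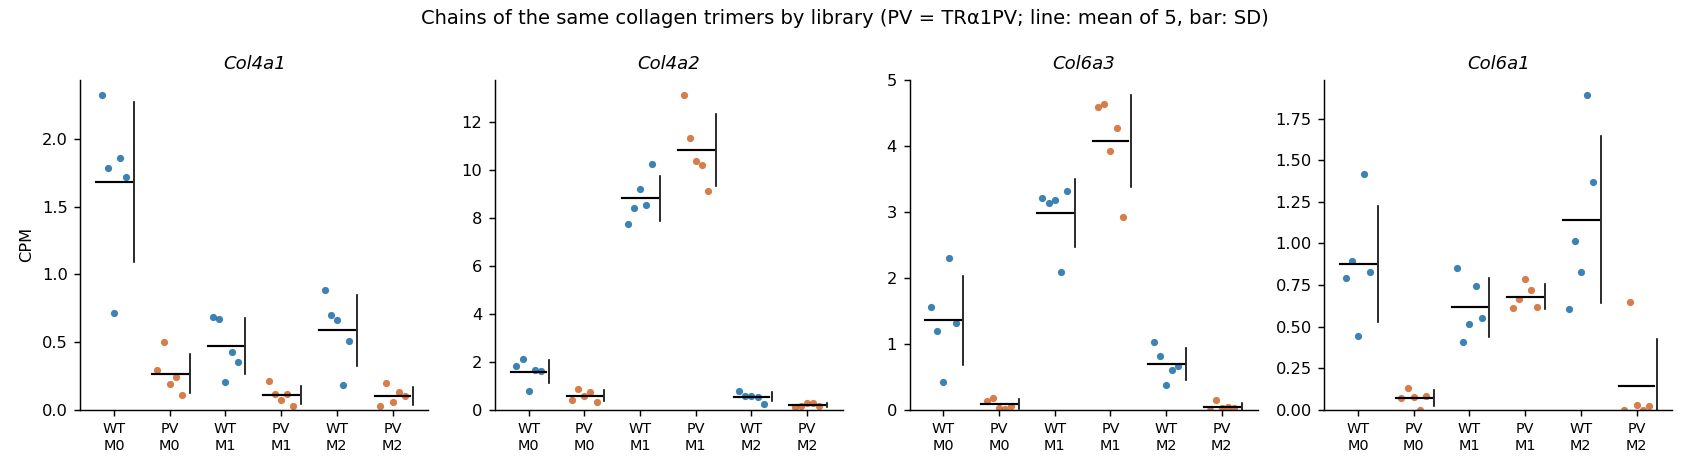
CPM by library for Col4a1 beside its partner Col4a2 and for Col6a3 beside Col6a1 (y axes from 0, own scales), WT in blue and TRα1PV (PV) in orange, mean as a line and SD as a bar cut off at 0, 5 libraries a group. Col4a2 is highest in M1 of both genotypes (means 8.81 and 10.8 CPM) while Col4a1 is highest in WT M0.

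Other genes of the matrix, of its assembly and of the signals that act on it, and markers of other cell types, were taken from 16 lists with 254 genes outside the 10; 135 of them passed the filter on low counts. A scarce gene could pass through 1 high group alone, so the shares describe the genes tested. Ccn1, Col12a1, Hspg2 and Lamb1 passed through WT libraries only, which favours a lower call in TRα1PV. Their p-values below are a description. In M0, 46 of the 135 (34.1%) were lower in TRα1PV and 16 (11.9%) higher, beside 14% and 12% of all genes. In M1 the numbers were 14 lower (10.4%) and 19 higher (14.1%), beside 10.2% and 9.74%. In M2 they were 33 lower (24.4%) and 13 higher (9.63%), beside 6.96% and 6.14%. The count of 13 dropped to 6 to 8 without WT M2 replicate 3 or 5 or TRα1PV M2 replicate 2, 4 or 5.

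Collagen processing enzymes were lower in M0 for 11 of 18. Serpinh1, the collagen chaperone, was at 1.30 CPM in WT M0 and 0.139 CPM in TRα1PV M0 (-3.41 ± 0.58 SE, adjusted p = 6.03e-05). P4ha2, a prolyl hydroxylase subunit, was lower in all 3 states, with log2 differences of -1.86, -0.68 and -1.46 in M0, M1 and M2. P4ha1 (-0.33 ± 0.06 SE, adjusted p = 2.69e-04) and Colgalt1 (-0.24 ± 0.06 SE, adjusted p = 5.43e-03), at 69.7 and 219.8 CPM in WT M0, were lower by less than 1 on the log2 scale.

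Small leucine-rich and matricellular genes were lower for 7 of 12 in M0 and higher for 1. Tnc (tenascin-C) had 332 reads in WT M0 and 16 in TRα1PV M0 (-4.62 ± 0.56 SE, adjusted p = 3.50e-07), Ccn1 131 and 7 (-4.43 ± 0.68 SE, adjusted p = 2.69e-05) and Ccn2 440 and 56 (-3.29 ± 0.45 SE, adjusted p = 2.87e-06). In M1, Tnc had 169 reads in WT and 203 in TRα1PV. Thbs1 (thrombospondin-1), at 2590 CPM in WT M0, was lower in M1 (-1.10 ± 0.18 SE, adjusted p = 6.23e-05). Basement membrane and elastic fibre genes were lower for 7 of 19 in M0 and higher for 3. The proteoglycan Hspg2 (-4.57 ± 0.67 SE, adjusted p = 7.72e-06), the laminin chain Lamb1 (-4.42 ± 0.61 SE, adjusted p = 6.53e-06) and Nid1 (-3.41 ± 0.40 SE, adjusted p = 2.05e-07) were lower. Lama3, another laminin chain, was higher (0.54 ± 0.15 SE, adjusted p = 6.95e-03). Of 6 other fibril-forming or fibril-associated collagens 1 was lower in M0, Col12a1, with 265 reads in WT and 10 in TRα1PV (-4.99 ± 0.65 SE, adjusted p = 1.07e-06). Without WT M0 replicate 2 that count was 2. Of 6 other network or transmembrane collagens 1 was lower, Col18a1 (-1.06 ± 0.20 SE, adjusted p = 2.85e-04), and 2 or 3 were lower when WT M0 replicate 1, 2 or 3 or any 1 of the TRα1PV M0 libraries was left out.

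Contractile genes other than Acta2 were lower for 4 of 11 in M0: Myl9 (-4.39 ± 0.62 SE, adjusted p = 1.80e-05), Tpm2 (-2.31 ± 0.47 SE), Tagln (-1.64 ± 0.35 SE) and Cald1 (-1.31 ± 0.23 SE). Cald1 was higher in TRα1PV in M2 (0.73 ± 0.19 SE, adjusted p = 0.0101). Of 17 TGF-β ligands, receptors and targets 4 were lower in M0 and 2 higher. The co-receptor Eng was lower (-0.81 ± 0.12 SE, adjusted p = 1.47e-05), and the signal transducer Smad3 was higher (0.23 ± 0.08 SE, adjusted p = 0.0292). The 4 lower calls became 7 without WT M0 replicate 2, and 7 with the batch as a block. The 2 higher calls became 1 on leaving out any of WT M0 replicates 3, 4 and 5 and TRα1PV M0 replicates 1 and 5. Of 4 PDGF genes 2, the ligands Pdgfa (-0.66 ± 0.16 SE, adjusted p = 2.95e-03) and Pdgfb (-0.37 ± 0.14 SE, adjusted p = 0.0468), were lower in M0, and 1 when any library but replicate 2 of either genotype was left out. Of 8 collagen receptors and uptake genes 2 were higher in M0, Fap (1.203 ± 0.308 SE, adjusted p = 4.55e-03) and the mannose receptor Mrc1 (0.60 ± 0.14 SE, adjusted p = 1.54e-03).

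**Figure D5:**
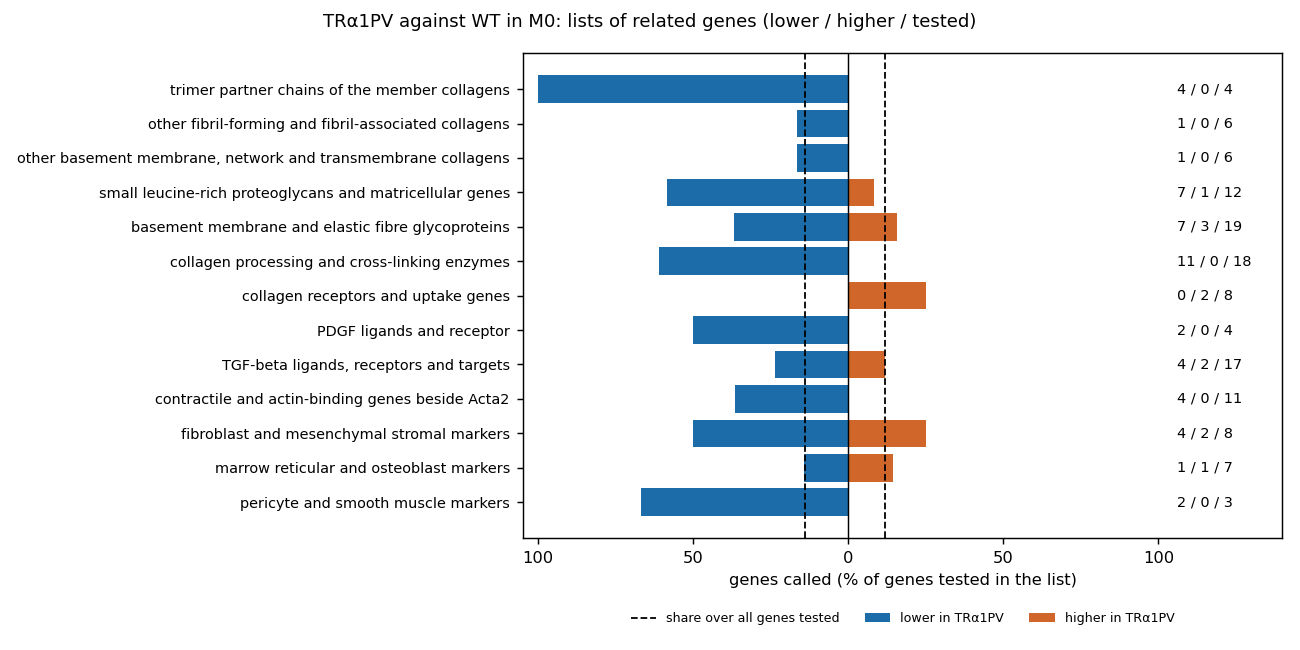
Share of the tested genes of each list called lower (blue, left) or higher (orange, right) in TRα1PV than in WT in M0; dashed lines are the shares over all genes tested (14% lower, 12% higher), and the numbers give genes lower, higher and tested. Processing enzymes stand at 11 of 18 lower, and collagen receptors and uptake genes at 2 of 8 higher.

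Markers of cells other than macrophages were measured beside these results. Of 21 fibroblast and mesenchymal markers, 8 were tested in M0, and 4 were lower and 2 higher in TRα1PV; without the filter on low counts 9 were lower. The summed level was 10.7 to 16.2 CPM in WT M0 and 7.06 to 12.6 CPM in TRα1PV M0. In WT it was 12.6 to 15.6 CPM in M1 and 21.5 to 33.9 CPM in M2, and in TRα1PV 10.7 to 14.7 and 20.6 to 31.6 CPM. Much of this sum was S100a4, a calcium-binding protein gene, with means of 7.95 and 23.5 CPM in WT M0 and M2 and 5.74 and 18.0 CPM in TRα1PV M0 and M2. The other 20 markers summed to 2.90 to 10.4 CPM in WT M0 and 2.26 to 3.42 CPM in TRα1PV M0, to 7.34 to 10.2 and 7.03 to 10.3 CPM in M1, and to 5.66 to 7.70 and 6.17 to 8.31 CPM in M2. Ccn2 and Postn (140 against 33 reads) were among the lower ones, and Fap and Pi16 were higher. That count of 2 became 1 on leaving out any of WT M0 replicates 4 and 5 and TRα1PV M0 replicate 1. The transcription factor Prrx1 had 79 reads in WT M0 and 4 in TRα1PV M0, Pdgfra had 22 and 2, and Loxl1 had 26 and 0. At 0 reads were 5 of the 21 in WT M0 and 8 in TRα1PV M0: Lum, Meox1, Tcf21, Mfap5 and Dpt in WT M0, and Twist1, Twist2, Tcf21, Loxl1, Fbln1, Fbln2, Mfap5 and Dpt in TRα1PV M0. Of 3 tested pericyte and smooth muscle markers 2 were lower, Tagln and Anpep (-0.41 ± 0.09 SE), the latter at 1067 CPM in WT M0, while Kcnj8, Higd1b and Vtn had no read in M0 of either genotype. Among those too scarce to test, reads in WT M0 and TRα1PV M0 were 20 and 0 for Rgs5, 14 and 2 for Lmod1, 10 and 1 for Notch3, 6 and 1 for both Des and Cnn1, 45 and 25 for Mcam and 26 and 17 for Myh11. Cspg4 was tested and did not pass, with 32 reads in WT M0 and 66 in TRα1PV M0. The summed level of the 15 pericyte markers was 987 to 1184 CPM in WT M0 and 671.7 to 928.9 CPM in TRα1PV M0. Anpep made up most of this sum, and the median sum in WT M0 was 1076 CPM. Of 7 marrow reticular and osteoblast markers 1 was lower, Spp1, and 1 higher, Runx2 (0.60 ± 0.10 SE). The lower call was lost on leaving out any of WT M0 replicates 1 and 4 and TRα1PV M0 replicates 1 and 2. Endothelial markers were higher for 3 of 6 and lower for 1 (Vwf, lost without WT M0 replicate 4), with Kdr at 4.46 CPM in WT M0 and 11.7 CPM in TRα1PV M0, and platelet markers were higher for 2 of 3, with Pf4 at 164 and 302 CPM. Summed levels in WT M0 and TRα1PV M0 were 634.7 to 771.8 and 492.3 to 709.4 CPM for the reticular and osteoblast list, 63.2 to 112.6 and 76.8 to 90.5 CPM for the endothelial list, and 151.2 to 213.2 and 218.2 to 374.9 CPM for the platelet list. Among 10 macrophage markers 1, Fcgr1, was higher and 2, Cd14 and Cd68, were lower. The part of these markers in the levels of the 10 genes was not tested.

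Across the 30 libraries, each gene was set beside the mean of the other 9 (log2 CPM, scaled per gene). Pearson's r was 0.835 to 0.962 for 8 of the genes, 0.329 for Pdgfrb and 0.200 for Col6a3. Over the 10 M0 libraries alone, r was 0.967 for Col6a3, 0.842 for Pdgfrb and 0.961 to 0.984 for the other 8. The genes were chosen for a difference between genotypes, which by itself raises r between them where both genotypes are pooled. The points also share libraries and depth, and these values are a description. Outside the 10, the genes most like their mean were Lamb1 (r = 0.941), Aebp1 (0.915), Col12a1 (0.909), Ccn1 (0.908), Gdf3 (0.891) and Hspg2 (0.889). Gdf3, a TGF-β family ligand, was the most read of the 6, with 910 reads in WT M0, 244 in WT M1 and 672 in WT M2 against 124, 50 and 66 in TRα1PV. Lamb1 had 98, 7 and 40 reads in WT and 5, 0 and 1 in TRα1PV. Over the 10 M0 libraries alone, 1 of these 6 genes remained among the nearest 6.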

How the data were processed

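Poly(A) RNA-seq read counts per gene came from macrophages grown from mouse bone marrow, in 30 libraries, 5 per genotype and state. The deposited counts are whole numbers per Ensembl gene, and no normalization was applied before deposit, per the files' values. Per the submitters' processing notes the authors' tools were FastQC 0.11.9, Trimmomatic 0.39, HISAT2 2.2.1, HTSeq 1.99.2, Cufflinks, edgeR, limma and R 4.3.2, with the build GRCm39; the role of each is not stated there. Reads that HTSeq assigned to no gene, 8.84 to 14.7% of a library, stayed out of library sizes and tests. Symbols were matched for 52081 of 55414 gene identifiers.

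One edgeR 4.0.16 model (R 4.3.3) with a mean per group and TMM factors was fitted to all 30 libraries, giving 24 residual degrees of freedom. Genes passed filterByExpr (minimum count 10, minimum total 15), which left 15686 genes and all 10 described here. Quasi-likelihood p-values were adjusted by Benjamini-Hochberg over all genes tested and called under 0.05. Standard errors are approximate: log2 fold change over √F. CPM used TMM-scaled library sizes. A group without reads was compared at a floor of 3 reads over the group, and ratios of reads carry exact 95% binomial intervals, which cover counting error only. The labels call the replicates biological, and p-values measure the spread between these samples. They also give the replicate number as a batch, so the numbers pair libraries by batch; correlations of same-numbered deviations from the group means ran from -0.37 to 0.33. The model left the batch out, and a fit with it as a replicate block was an alternative, given beside each result whose call it changes. Depth was 23015952 to 59086252 reads in genes.

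The 10 genes and the 16 lists were chosen with earlier results of these data known. Named list genes are up to 4 called genes with the smallest p in a genotype contrast, plus every partner chain; marker genes at 0 or with few reads, and other list genes given with counts, were chosen after their values were seen. One gene that this rule names is not reported here. The searched promoter motifs CCAAT, TTCNNNGAA and the interferon-stimulated response element core were also chosen after seeing the data. Genes most like the 10 are the 6 with the highest Pearson r with their scaled mean, in log2 CPM with a prior count of 2. Exon lengths come from GENCODE M21, an older build used only for lengths and neighbours. Promoters come from RefSeq on GRCm38.p6 and were used for 7 of the 10, without Col1a1, Col5a2 and Pdgfrb. Alternatives were RLE size factors, DESeq2 1.42.0, limma-voom (limma 3.58.1), no low-count filter, only the 2 groups compared, a replicate block, and leaving out each library. The fit was tested on simulated data. Python 3.11.15 with pandas 2.3.3, numpy 2.4.6, scipy 1.17.1 and matplotlib 3.10.9 served for summaries and plots.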

Additional observations from a re-analysis of the deposited data

Results flagged for a closer look

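In 7 of 52 groups of 5 libraries, 1 library lay far from the other 4 by Dixon's test at the 95% level, which chance does in about 1 of 20 groups. Col6a3 in WT M1 was 2.08 CPM (59 reads) in replicate 4, and the others lay between 3.13 and 3.32 CPM. Bgn and Sparc in TRα1PV M0 were both highest in replicate 2, at 0.419 CPM (16 reads each), with the next library at 0.139 CPM for either gene. Sparc in TRα1PV M1 was 0.215 CPM in replicate 1, on 6 reads, with the next library at 0.118 CPM. Acta2 in WT M2 was 3.78 CPM (130 reads) in replicate 2, with the others between 1.53 and 2.15 CPM. Pdgfrb in WT M0 was 0.393 CPM (16 reads) in replicate 3, with the others between 0.951 and 1.10 CPM. Pdgfrb in TRα1PV M0 was 0.360 CPM (13 reads) in replicate 5, with the others between 0.478 and 0.518 CPM.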

How the results depend on the processing

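Of the log2 changes of the 10 genes between states, 851 of the alternative values kept direction and side of the threshold, 16 newly passed it, 31 no longer passed and 18 changed sign. The sign changes were all in TRα1PV, for genes that did not pass the test, and the cause was not tested. With limma-voom, Sparc from M0 to M1 was 0.051, Col1a2 and Col5a2 from M0 to M2 were -0.44 and -0.017, and Col1a2 from M1 to M2 was -0.18. Leaving out 1 library at a time gave ranges of -1.44 to 0.087 (Col1a2) and -0.53 to 0.30 (Sparc) from M0 to M1. From M0 to M2 the ranges were -1.01 to 0.69 (Col1a2), -0.37 to 0.67 (Col5a2) and -0.76 to 0.026 (Sparc). From M1 to M2 they were -0.48 to 1.51 (Col1a2), -0.33 to 0.37 (Col4a1) and -0.20 to 0.73 (Bgn).

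Fitting only the 2 groups compared, where some genes no longer passed the low-count filter and fewer samples set the spread, changed several counts. Lower calls between genotypes in M1 went from 6 to 0, lower calls from M0 to M2 in WT from 7 to 4 (5 with DESeq2), and lower calls from M0 to M1 in TRα1PV from 3 to 1. The 6 genes called between genotypes in M1 were not tested in that fit. In TRα1PV from M0 to M2 this fit gave 1 higher and 1 lower, DESeq2 gave 1 higher, limma-voom gave 1 lower, and leaving out a library gave 1 to 2 lower. From M1 to M2 it gave 1 higher instead of 2, and DESeq2 gave 3 (Col1a1 added). For single lists in M0 it gave 7 lower processing genes instead of 11 and 4 lower basement membrane and elastic fibre genes instead of 7, and without the low-count filter 9 fibroblast markers were lower instead of 4. Over the single lists and 3 states 204 alternative counts moved by over 1.5 times and 1332 did not. List genes higher in TRα1PV in M2 numbered 6 to 10 without 1 library, against 13.

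With the batch (replicate number) as a replicate block, lower calls from M1 to M2 in TRα1PV went from 1 to 2 (Acta2 added), also with the block within genotype, an alternative chosen after seeing the data. Under the replicate block Col1a2 from M0 to M2 in TRα1PV was -0.037, and -0.030 with the block within genotype. From M0 to M2 in WT, 9 genes fell with the block instead of 7. Members lower between genotypes numbered 10, 7 and 9 with the block in M0, M1 and M2. The replicate block changed no other call of the 10 genes between states or of the partner chains. The block within genotype also added calls in TRα1PV. These were Bgn from M0 to M1 (-1.33, adjusted p = 0.0321) and Col1a1 from M1 to M2 (1.77, adjusted p = 0.0378). Both genes passed the filter on low counts through the WT libraries.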
